A study of Rattus norvegicus with 160 samples.

Results

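Drd2, Adora2a, Penk, Pdyn, Tac1 and Ppp1r1b are genes by which the projection neurons of the striatum are usually recognised. These 6 genes were followed in the rat amygdala and hippocampus. They were picked by symbol, with earlier results of these arrays known, above all the amygdala difference between LR pups raised by HR and by LR foster dams. That difference is therefore given below as a description and was not tested. Each gene had 1 transcript on the arrays, so 6 of the 25903 identifiers in the table, and 6 of the 9387 symbols that could be matched, were followed.

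The series holds 160 arrays of male Sprague-Dawley rats from lines bred as low responders (LR) and high responders (HR) to novelty. Pups of the LR line were raised by an HR foster dam (LR-HR), by an LR foster dam (LR-LR) or by their own LR mother (LR). Pups of the HR line were raised by their own HR mother (HR). Each group was sampled at postnatal days 7, 14 and 21 (P07, P14, P21) and as adults (P75), with 5 arrays per region, age and group. The labels name neither litters nor array batches. The p-values below therefore rest on array-to-array spread alone, which may be technical.

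Projection neurons of the striatum are GABAergic and fall into a pair of main classes. Those of the indirect pathway carry the dopamine D2 receptor (Drd2) and an adenosine receptor (Adora2a), which act in opposite directions on cyclic AMP, and make the enkephalin precursor (Penk). Those of the direct pathway make the precursors of dynorphin (Pdyn) and substance P (Tac1). Both classes hold Ppp1r1b, also called DARPP-32, a phosphatase inhibitor that is switched by dopamine signalling through protein kinase A. The central amygdala is built from similar GABAergic cells, and the striatum lies next to the amygdala. In the hippocampus Pdyn is a peptide of dentate granule cells, and Penk is found there and in interneurons.

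RefSeq (build GRCr8) gave promoters for 3 of the 6 genes. For Tac1 the promoter stretch lies mostly inside the gene's span in RefSeq's gene table, so it is not shown. The 250 bases before the start site are shown for Drd2 and Pdyn, because these genes differed in how they followed the groups. Each runs 5′ to 3′ on the gene's own strand. Capitals mark GGGCGG (the GC box) in Drd2 and TATAAA (the TATA box) in Pdyn, each read on both strands, so that CCGCCC is the GC box on the opposite strand.
Drd2, chr8:58605153-58605402, plus strand: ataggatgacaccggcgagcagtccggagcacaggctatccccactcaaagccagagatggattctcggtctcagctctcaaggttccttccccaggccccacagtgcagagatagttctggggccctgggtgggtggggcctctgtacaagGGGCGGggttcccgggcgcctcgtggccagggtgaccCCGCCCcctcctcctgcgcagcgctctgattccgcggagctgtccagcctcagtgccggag
Pdyn, chr3:137366504-137366753, minus strand: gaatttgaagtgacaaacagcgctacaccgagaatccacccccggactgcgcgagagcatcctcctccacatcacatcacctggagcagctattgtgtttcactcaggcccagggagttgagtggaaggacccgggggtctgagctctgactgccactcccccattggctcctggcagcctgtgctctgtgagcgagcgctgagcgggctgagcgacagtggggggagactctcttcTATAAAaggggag
The Drd2 promoter held GGGCGG at 2 places and had 66% G and C, against 59.2% in Pdyn. GGGCGG occurs in 30.5% of the 33469 promoter stretches of this length in the table. TATAAA stood just before the start of Pdyn and occurs in 12.9% of all stretches. TGACGTCA, the full cyclic AMP response element, found in 1.59% of all stretches, was not among the letters of either. No overlap between the motifs was seen in these stretches.

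Values are log2 of the deposited intensity, on which 1 unit is a factor of 2. Levels are compared for one gene at a time within one region, because the regions have their own measured rows and scale and were possibly normalized apart. Arrays of one group correlated over all transcripts with a median r of 0.943 (amygdala) or 0.912 (hippocampus). Of 23 further striatal projection neuron genes, 12 were measured in the amygdala and 13 in the hippocampus. Among them Drd1, the dopamine receptor of the direct pathway, Adcy5, Pde10a and Rgs9 were measured, so the label could be checked in part. The tissue was bulk RNA, in which fewer cells of a type and less RNA per cell cannot be told apart.

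In the amygdala most of the spread of these genes lay between groups. The genes were chosen with a contrast between some of these groups in view, and the same shares were not computed for all transcripts. Group means accounted for 85.2% of the variance of Drd2 over 80 arrays, 84.2% for Adora2a, 81.7% for Penk, 80.4% for Ppp1r1b, 78.7% for Tac1 and 70.3% for Pdyn. For Drd2 the larger portion lay between rearing groups of the same age (69.8%, against 15.4% between ages), and for Tac1 it lay between ages (60.9%, against 17.8%). The highest and the lowest of the 16 group means of Drd2 both belonged to LR-LR pups, with 10.05 at P14 and 7.02 in adults. Adora2a and Tac1 also had their lowest group mean in adult LR-LR rats, at 8.66 and 6.61. Penk, Pdyn and Ppp1r1b had their highest in adult LR-HR rats, at 15.00, 9.30 and 12.18.

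**Figure D1:**
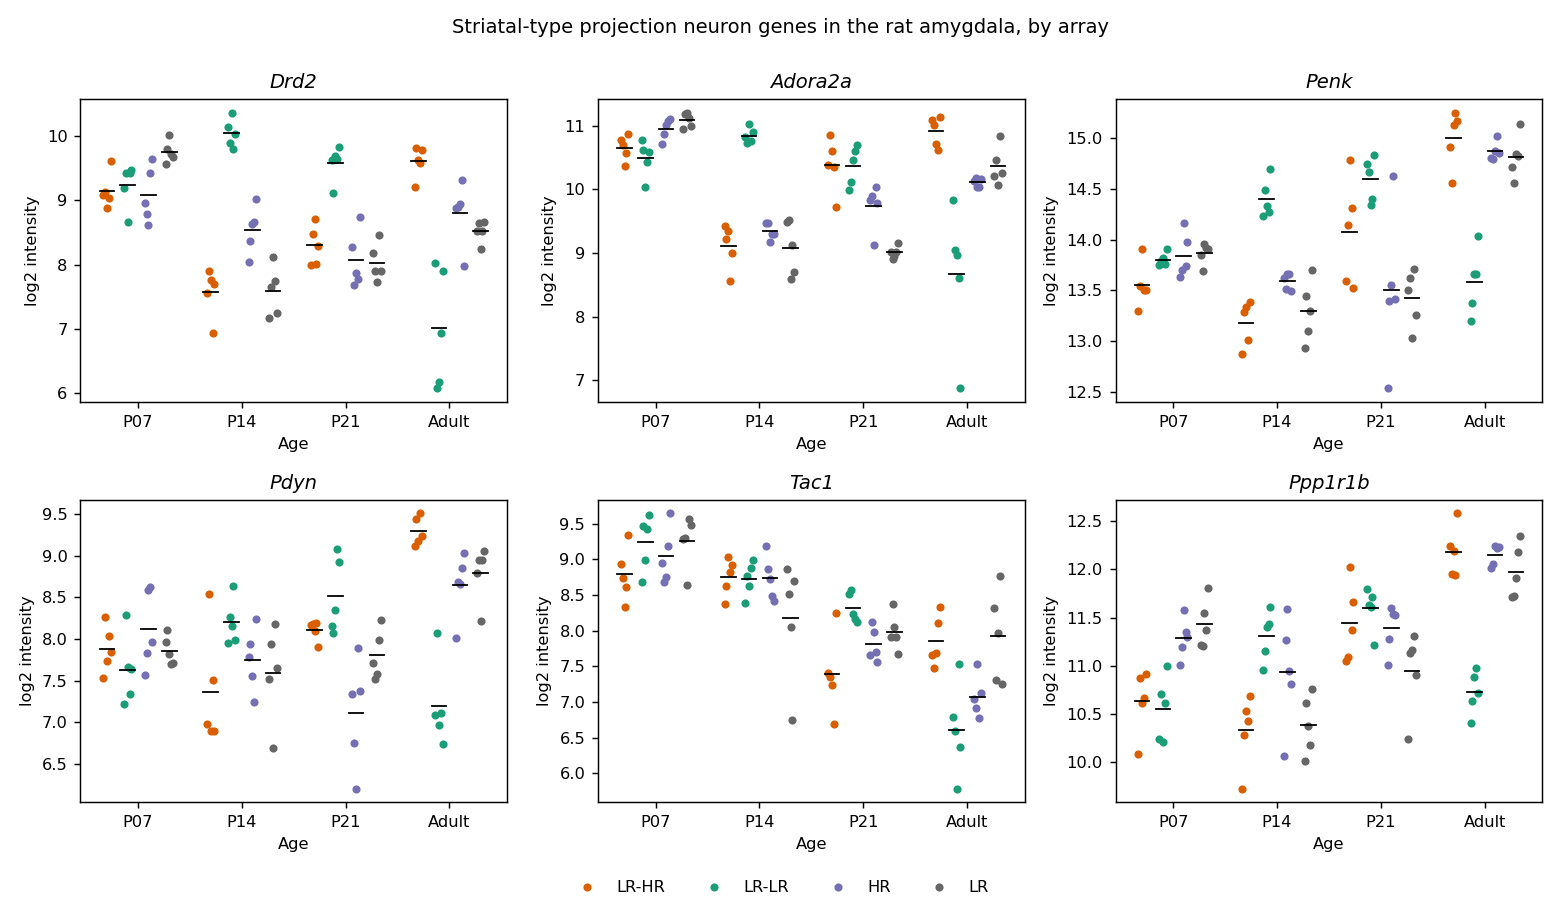
Log2 intensity of the 6 genes in the amygdala by age, 1 point per array, with the 4 rearing groups side by side and a black bar at each group mean (n = 5). At P14 the LR-LR arrays of Drd2 (9.80 to 10.36) sit above every other array of that age, and in adults the LR-LR arrays of Ppp1r1b (10.41 to 10.97) sit below every other array.

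At P14 the indirect pathway genes were lower in LR-HR than in LR-LR amygdalae. Drd2 was 7.56, 7.89, 7.77, 6.94 and 7.70 in LR-HR pups, against 10.15, 9.89, 10.36, 9.80 and 10.04 in LR-LR pups, a difference of -2.48 ± 0.23 (SE). Every LR-HR array was below every LR-LR array, and no other of the 22197 transcripts had a difference as far below 0. Adora2a was 9.43, 9.23, 9.35, 8.56 and 9.01 in LR-HR pups, against 10.82, 10.72, 11.02, 10.76 and 10.90 in LR-LR pups. Penk was 12.87 to 13.38 in LR-HR pups and 14.23 to 14.70 in LR-LR pups, with the groups again apart. Ppp1r1b, which both pathways share, was 9.73 to 10.68 in LR-HR pups and 10.96 to 11.61 in LR-LR pups.

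Pdyn and Tac1, of the direct pathway, overlapped between these groups at P14. Pdyn was 6.98, 8.54, 6.89, 7.50 and 6.89 in LR-HR pups, against 7.95, 8.26, 8.16, 8.63 and 7.99 in LR-LR pups, and 1 LR-HR array lay inside the LR-LR range, with a difference of -0.84 ± 0.31. Tac1 averaged 8.75 ± 0.26 in LR-HR pups and 8.73 ± 0.23 in LR-LR pups (SD, n = 5 each). Thus 4 of 6 genes had LR-HR arrays wholly below LR-LR arrays, where 13.1% of all transcripts did, in the contrast with which the genes were chosen. Drd1, the direct pathway receptor, which is not among the 6, was also lower in LR-HR pups (-1.33 ± 0.25). Lower values were therefore not confined to indirect pathway genes.

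In adults the order was the opposite one. Drd2 was 9.22, 9.81, 9.63, 9.59 and 9.79 in LR-HR rats, against 8.02, 6.08, 6.17, 6.93 and 7.90 in LR-LR rats, a difference of 2.59 ± 0.32, the highest among the 22197 transcripts. Adora2a was 11.10, 11.01, 10.72, 10.61 and 11.14 in LR-HR rats, against 9.83, 9.05, 8.97, 8.60 and 6.88 in LR-LR rats. The LR-LR arrays of both receptor genes were widely spread (SD 0.92 and 1.09), and still none reached the lowest LR-HR array. The Drd2 value of 6.08 was its lowest on any amygdala array, where Drd2 went down to percentile 13.2 of an array's transcripts. Tac1 was also lowest in adult LR-LR rats, at 5.78, and went down to percentile 8.17. Values were read against a background control in the hippocampus alone.

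Pdyn was 9.11, 9.45, 9.18, 9.51 and 9.24 in adult LR-HR rats, against 7.08, 8.07, 6.97, 7.12 and 6.74 in adult LR-LR rats, a difference of 2.10 ± 0.24. Penk was 14.56 to 15.25 in LR-HR rats and 13.20 to 14.03 in LR-LR rats, and Ppp1r1b was 11.94 to 12.58 in LR-HR rats and 10.41 to 10.97 in LR-LR rats. Tac1 was 7.66, 7.47, 7.69, 8.11 and 8.33 in LR-HR rats, against 6.79, 6.60, 5.78, 7.53 and 6.36 in LR-LR rats, where a single LR-LR array passed the lowest LR-HR array. In 5 of 6 genes the adult LR-HR arrays lay wholly above the LR-LR arrays, as did those of 11.9% of all transcripts.

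At P07 and P21 the foster groups were closer. The mean difference over the 6 genes was -0.05 at P07, -1.20 at P14, -0.55 at P21 and 1.84 in adults. No gene separated LR-HR from LR-LR pups at P07, where 3.14% of all transcripts did. At P21 only Drd2 did so among the 6, with 7.99, 8.48, 8.71, 8.02 and 8.29 in LR-HR pups, against 9.63, 9.11, 9.69, 9.64 and 9.82 in LR-LR pups, and 10.9% of all transcripts were wholly lower. Adora2a averaged 10.38 ± 0.42 in LR-HR pups and 10.37 ± 0.31 in LR-LR pups at P21, so the pair of indirect pathway receptors parted at this age.

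Pups of the LR line raised by an LR foster dam were then set beside pups left with their own LR mother. This comparison shares the LR-LR arrays with the foster contrast, so its values too are descriptions, and the counts of calls give only where the genes stood among all transcripts. At P21 these groups differed little elsewhere: limma called 3 of 22197 transcripts (0.0135%). They were Drd2, Adora2a and Crebbp, a transcriptional coactivator named here because the count was so small and therefore chosen after its value was seen. Crebbp was lower in LR-LR pups, by -1.60 ± 0.22.

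Drd2 was 9.63, 9.11, 9.69, 9.64 and 9.82 in LR-LR pups at P21, against 8.18, 7.90, 7.73, 8.46 and 7.90 in LR pups, a difference of 1.55 ± 0.23. Adora2a was 9.98, 10.11, 10.46, 10.60 and 10.70 in LR-LR pups, against 9.02, 8.90, 8.95, 9.02 and 9.16 in LR pups, a difference of 1.36 ± 0.22. Penk was 14.34 to 14.84 in LR-LR pups and 13.03 to 13.71 in LR pups, without a call. For these 3 genes every LR-LR array lay above every LR array, as for 0.937% of all transcripts. Without one or another of 8 of the 10 arrays the count of 2 called members became 1 or 0.

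In adults 5 of the 6 genes were among the 146 called transcripts (0.658%), all lower in LR-LR than in LR rats, and the sixth, Tac1, differed by -1.31 ± 0.31. Pdyn was 7.08, 8.07, 6.97, 7.12 and 6.74 in LR-LR rats, against 8.80, 8.95, 8.21, 8.95 and 9.06 in LR rats. Penk was 13.20 to 14.03 in LR-LR rats and 14.56 to 15.13 in LR rats. Ppp1r1b was 10.41 to 10.97 in LR-LR rats and 11.71 to 12.35 in LR rats. The 5 called genes were wholly lower in LR-LR rats, as were 1.11% of all transcripts. The differences of the 6 genes ran from -1.70 for Adora2a to -1.23 for Penk, and 0.149% of all transcripts had a difference as low as that of Penk. Leaving out replicate 4 of the LR rats took the count of called members to 3.

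At P14 4 of the 6 genes (Drd2, Adora2a, Penk and Ppp1r1b) were among the 8364 called transcripts, a share of 37.7%, so at that age the LR-LR and LR amygdalae differed in very many transcripts. Drd2 at P14 was 2.46 ± 0.23 higher in LR-LR than in LR pups, and 99.96% of all transcripts had a difference no higher than this. At P07 the direction was the other one: Drd2, Adora2a and Ppp1r1b were wholly lower in LR-LR than in LR pups, as were 0.455% of all transcripts, with differences of -0.52 ± 0.21, -0.60 ± 0.15 and -0.88 ± 0.19. None of the 6 was called there, where 0.0586% of all were, and with the replicate number as a block 1 was.

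**Figure D2:**
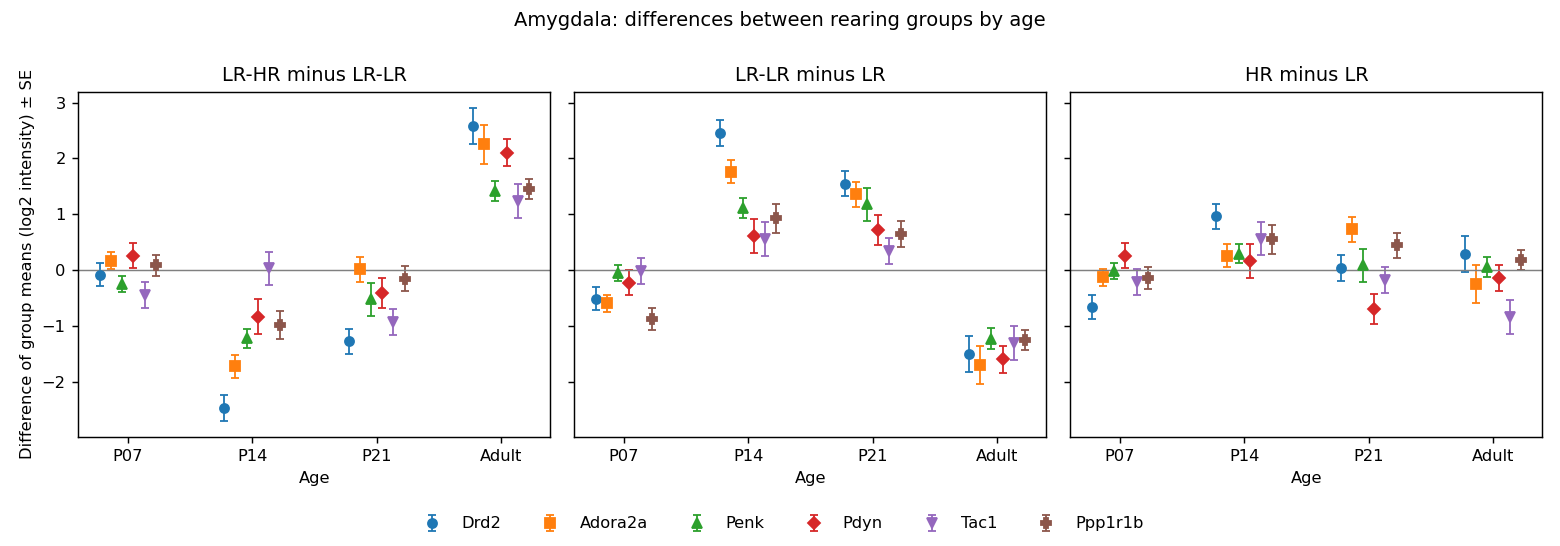
Differences of group means (log2 intensity) ± SE of the 6 genes in the amygdala by age, for LR-HR minus LR-LR, LR-LR minus LR and HR minus LR. The first and second panels share the LR-LR arrays: Drd2 lies at -2.48 and 2.46 there at P14, and at 2.59 and -1.50 in adults.

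**Figure D3:**
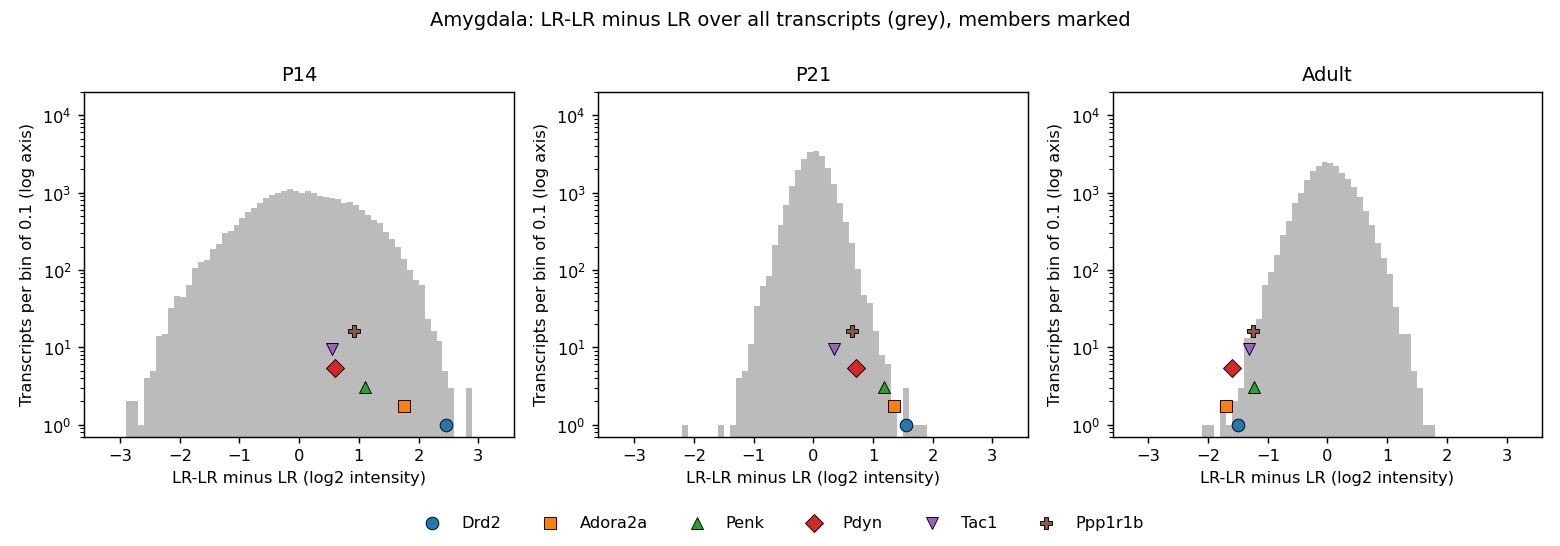
LR-LR minus LR differences (log2 intensity) of all 22197 amygdala transcripts at P14, P21 and in adults, as grey bars of transcripts per bin of 0.1 on a log axis, with the 6 genes marked at an arbitrary height. At P14 the genes lie inside a broad distribution, at P21 Drd2 (1.55) and Adora2a (1.36) lie at its upper edge, and in adults all 6 (-1.70 to -1.23) lie at its lower edge.

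LR-HR rats were also set beside HR rats, both raised by HR dams. At P07 Ppp1r1b was wholly lower in LR-HR pups (-0.65 ± 0.19), as were 0.423% of all transcripts, and at P14 Drd2 (-0.97 ± 0.23) and Penk (-0.41 ± 0.18) were, as were 4.57%. At P21 no transcript was called (0 of 22197 by limma's adjusted p, and 2021 at an unadjusted p under 0.05), and Pdyn was the only one of the 6 genes whose groups did not overlap, at 7.91 to 8.20 in LR-HR pups and 6.20 to 7.89 in HR pups, as in 0.955% of all transcripts. In adults Adora2a was 10.61 to 11.14 in LR-HR rats and 10.03 to 10.18 in HR rats, and Pdyn was 9.11 to 9.51 in LR-HR rats and 8.01 to 9.04 in HR rats. In adults 4.6% of all transcripts were wholly higher in LR-HR rats, and the other 4 genes overlapped.

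The bred lines were compared through the HR and LR groups, whose arrays were in neither foster group, and here the genes were tested. The LR arrays are those of the fostering comparison above. Of the 6 genes, 1 was called at P14, 1 at P21, 1 in adults and 0 at P07, each time another gene. The background was 22.8% of all transcripts called at P14, 15.7% at P21, 28.1% in adults and 0.131% at P07, so the shares of the members were near it or below it at the later 3 ages. At P07, where limma called 0 members and 2469 of all transcripts had an unadjusted p under 0.05, Drd2 differed the most of the 6, by -0.66 ± 0.21 with an adjusted p of 0.233.

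Drd2 was higher in HR than in LR pups at P14. It was 8.04, 8.37, 8.63, 8.67 and 9.02 in HR pups, against 7.16, 7.65, 8.12, 7.75 and 7.25 in LR pups. The difference was 0.96 ± 0.23 (limma, adjusted p = 0.00415), and 1 HR array lay inside the LR range. Over 16 alternatives the adjusted p of this call ran from 0.00127 to 0.0252. The line difference of Drd2 itself changed between ages, by 1.62 ± 0.36 from P07 to P14 (adjusted p = 0.000465) and by -0.92 ± 0.36 from P14 to P21 (adjusted p = 0.0351). The second of these calls was lost with quantile normalization (-0.66, adjusted p = 0.148) and without replicate 1, 2 or 4 (adjusted p = 0.0584, 0.0883 and 0.169). Among all transcripts 14.6% had a called change of the line difference over the first of these steps and 35.4% over the second.

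Adora2a was higher in HR than in LR pups at P21, with 9.84, 9.90, 9.13, 10.03 and 9.79 in HR pups, against 9.02, 8.90, 8.95, 9.02 and 9.16 in LR pups. The difference was 0.73 ± 0.22 (limma, adjusted p = 0.0298), and HR replicate 3 alone lay within the LR range. This call was near the threshold: without any one of 7 of the 10 arrays (LR replicates 2, 3 and 4, HR replicates 1, 2, 4 and 5) the adjusted p lay between 0.0527 and 0.0674, with a difference of 0.65 to 0.73. The Adora2a line difference changed by -0.98 ± 0.34 from P21 to adults (adjusted p = 0.0158), a step over which 39.6% of all transcripts were called, and without replicate 2 or 4 this call was lost (adjusted p = 0.0870 and 0.134).

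Tac1 was lower in HR than in LR adults. It was 7.04, 6.91, 7.53, 6.77 and 7.12 in HR rats, against 8.32, 7.30, 7.97, 8.76 and 7.24 in LR rats, a difference of -0.84 ± 0.31 (limma, adjusted p = 0.0442). The groups overlapped, and without any one of 7 of the 10 arrays (LR replicates 1, 3 and 4, HR replicates 1, 2, 4 and 5) the adjusted p lay between 0.0670 and 0.130. Penk was 14.79 to 15.02 in adult HR rats and 14.56 to 15.13 in adult LR rats, and Ppp1r1b was 12.01 to 12.24 in HR rats and 11.71 to 12.35 in LR rats.

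Averaged over rearing groups, the receptor genes fell in the second week and the peptide genes parted later. From P07 to P14 Drd2 fell by 0.87 ± 0.13, Adora2a by 1.20 ± 0.12 and Tac1 by 0.48 ± 0.14 (limma, adjusted p = 4.27e-08, 2.86e-13 and 0.00445), 3 of 6 genes where 27.6% of all transcripts were called in either direction. From P14 to P21 Ppp1r1b rose by 0.60 ± 0.10 and Tac1 fell by 0.72 ± 0.14 (adjusted p = 7.82e-06 and 5.43e-05). Penk rose by 0.28 ± 0.10 (adjusted p = 0.0420), a call lost without replicate 2, 3 or 4 (adjusted p = 0.128, 0.121 and 0.351). These were 3 of 6 genes, against 15.3% of all transcripts.

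From P21 to adults Penk rose by 0.67 ± 0.10, Pdyn by 0.60 ± 0.13 and Ppp1r1b by 0.41 ± 0.10 (adjusted p = 3.66e-07, 0.000483 and 0.00198). Tac1 fell by 0.51 ± 0.14 (adjusted p = 0.00449), a call lost without replicate 2 (adjusted p = 0.115). That made 4 of 6 genes, against 19.7% of all transcripts. Tac1 fell at every step, with medians over 20 arrays of 9.09 at P07, 8.71 at P14, 7.95 at P21 and 7.39 in adults. These averages hold the LR-LR arrays, which were high at P14 and low in adults for Drd2 and Adora2a. The 4 groups did not share one course. Drd2 averaged 9.24, 10.05, 9.58 and 7.02 at P07, P14, P21 and adult age in LR-LR rats, but 9.75, 7.59, 8.03 and 8.52 in LR rats. From P21 to adults LR-LR means fell from 14.60 to 13.58 for Penk, 8.52 to 7.19 for Pdyn and 11.60 to 10.72 for Ppp1r1b. In the other groups these genes rose over that step. Tac1 rose over it in LR-HR rats, from 7.39 to 7.85.

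Of the 23 other striatal genes 12 were measured in the amygdala, and in the contrast that chose the members their values too are a description. In LR-HR against LR-LR pups 8 of 12 were called lower and 0 higher at P14 (median difference -0.96, against -0.02 over all transcripts), among them Drd1 at -1.33 ± 0.25 and Pde10a, a phosphodiesterase of striatal neurons, at -1.18 ± 0.21. In adults 7 of 12 were called higher and 0 lower (median 1.09, against 0.12 over all), with Adcy5, the main adenylyl cyclase of the striatum, at 1.84 ± 0.22. Drd1, singled out after its value was seen, was 0.31 ± 0.23 in adults and was not called. Over all transcripts 13.7% were called lower at P14 and 17.2% higher in adults. In the foster contrast at P21 the summed intensity of the 12 was 4095 to 6621 in LR-HR pups and 7075 to 8526 in LR-LR pups. Those called lower there included Strn (-1.07), Drd1 (-0.85), Pde10a (-0.82) and Pde1b (-0.76). In LR-LR against LR rats 0 of 12 were called at P21 (median 0.12) and 1 of 12, Foxp1, in adults (-0.79 ± 0.18, list median -0.24). At P14, where 37.7% of all transcripts were called, the sum was 7183 to 9898 in LR-LR pups and 3168 to 4098 in LR pups. Those called higher in LR-LR pups at P14 included Pde1b (1.76), Rgs9 (1.63), Pde10a (1.54) and Strn (1.45). The medians of the 6 members in the same contrast were 0.94 at P21 and -1.40 in adults, and the gap between the lists was not tested.

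Between the lines the other striatal genes were called higher in HR amygdalae in 5 of 12 cases at P14, 1 of 12 at P21 and 5 of 12 in adults, and lower in none, where 22.8%, 15.7% and 28.1% of all transcripts were called in either direction. Rgs9, a regulator of G protein signalling in the striatum, was higher in HR pups by 1.33 ± 0.35 at P14 (limma, adjusted p = 0.00750) and by 0.88 ± 0.25 at P21 (adjusted p = 0.0213). In adults Rasd2, a striatal GTPase, was higher in HR rats by 1.29 ± 0.20 and Adcy5 by 1.17 ± 0.22 (limma, adjusted p = 8.08e-05 and 0.000367). Of the 6 members only Tac1 was called there.

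A second list held other genes of dopamine, adenosine, opioid and tachykinin signalling. They were receptors, peptide precursors, kinases, phosphatases and enzymes that process peptide precursors, and 23 of 26 were measured in the amygdala. Between the lines 9 were called higher and 1 lower in HR adults (median 0.56, against 0.09 over all transcripts). In HR pups 6 were called higher and 1 lower at P14, and 0 higher and 3 lower at P21. Beside these counts of 23 stand the 28.1% of all transcripts called in adults, 22.8% at P14 and 15.7% at P21, and the shares at P14 and P21 were near them. Adora1, the inhibitory adenosine receptor, was higher in HR rats by 1.55 ± 0.27 at P14 and by 1.83 ± 0.20 in adults (limma, adjusted p = 0.000258 and 1.67e-06). Tacr3, a tachykinin receptor, was higher in HR adults by 1.98 ± 0.20 (adjusted p = 8.06e-07). Pcsk2 is a protease that cuts peptide precursors such as those of enkephalin and dynorphin. It was higher in HR adults by 1.62 ± 0.21 and lower in HR pups at P21 by 0.70 ± 0.22 (adjusted p = 9.22e-06 and 0.0370). Oprk1, the dynorphin receptor, was lower in HR pups at P21 by 0.85 ± 0.23 (adjusted p = 0.0163).

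Genes of other cell types, and ribosomal protein genes, differed between the same arrays. In the foster contrast at P14, the summed intensity of 12 ribosomal protein genes was 86965 to 103777 in LR-HR pups and 46929 to 57939 in LR-LR pups. The summed intensity of 4 markers of cortical and basolateral glutamate neurons was 9907 to 12863 in LR-HR pups and 17079 to 20640 in LR-LR pups at P14, and 18065 to 21131 in LR-HR rats and 10785 to 17028 in LR-LR rats as adults. Myelin genes gave 37664 to 42923 in adult LR-HR rats and 21177 to 30789 in adult LR-LR rats. Of these genes 5 of 7 were called higher, where 17.2% of all transcripts were. Astrocyte genes gave 16263 to 23033 in adult LR-HR rats and 8458 to 13141 in adult LR-LR rats. The part of these cell types in the values of the 6 genes was not tested.

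Between the LR-LR and LR groups some of these sums overlapped and others did not. At P21 the ribosomal sum was 44870 to 51514 in LR-LR pups and 45121 to 53451 in LR pups. The glutamate neuron sum was 24598 to 29026 in LR-LR pups and 26392 to 34513 in LR pups, and the astrocyte sum was 20045 to 27644 in LR-LR pups and 22917 to 27931 in LR pups. The summed intensity of 5 blood genes did not overlap, with 35004 to 48897 in LR-LR pups and 49642 to 68717 in LR pups. The sum of the 6 genes was 26756 to 34992 in LR-LR pups and 11799 to 17297 in LR pups. These are sums of linear intensities, and Penk made up most of this sum in every amygdala group. In LR pups at P21 Penk averaged 13.42 on the log2 scale, and the next highest gene, Ppp1r1b, averaged 10.95.

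In adults the sum of the 6 genes was 12162 to 19011 in LR-LR rats and 29960 to 43469 in LR rats. The ribosomal sum overlapped there, with 71536 to 101145 in LR-LR rats and 79432 to 103394 in LR rats. The glutamate neuron sum did not, with 10785 to 17028 in LR-LR rats and 7663 to 10069 in LR rats. The 10 measured genes of central amygdala and intercalated neurons, another GABAergic set, were lower as a sum in LR-LR than in LR adults, with 13478 to 15180 in LR-LR rats and 15800 to 18985 in LR rats, and overlapped at P21, with 10360 to 12457 in LR-LR pups and 10014 to 12651 in LR pups. At P14 their sum was 12021 to 13617 in LR-LR pups and 23387 to 27996 in LR pups, lower in LR-LR, where the sum of the 6 genes was 24773 to 33406 in LR-LR pups and 10341 to 16241 in LR pups. LR-HR pups at P14 had 21210 to 27469 for the central amygdala genes and 9669 to 13654 for the 6 genes. Their part in the values of the 6 genes was not tested.

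Among themselves the 6 genes moved together between groups more than within them. Over the 16 group means of the amygdala the Pearson correlation of the 15 gene pairs had a median of 0.58 and was above 0 in 12. It was 0.892 for Drd2 and Adora2a, 0.907 for Penk and Pdyn and 0.891 for Penk and Ppp1r1b, while the 3 pairs below 0 were those of Tac1 with Penk, Pdyn and Ppp1r1b. The means share ages and arrays of the contrast that chose the genes. With the group means taken off, the 15 pairs over 80 amygdala arrays had a median of 0.0195, with 9 above 0 and a highest value of 0.41 for Penk and Ppp1r1b.

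**Figure D4:**
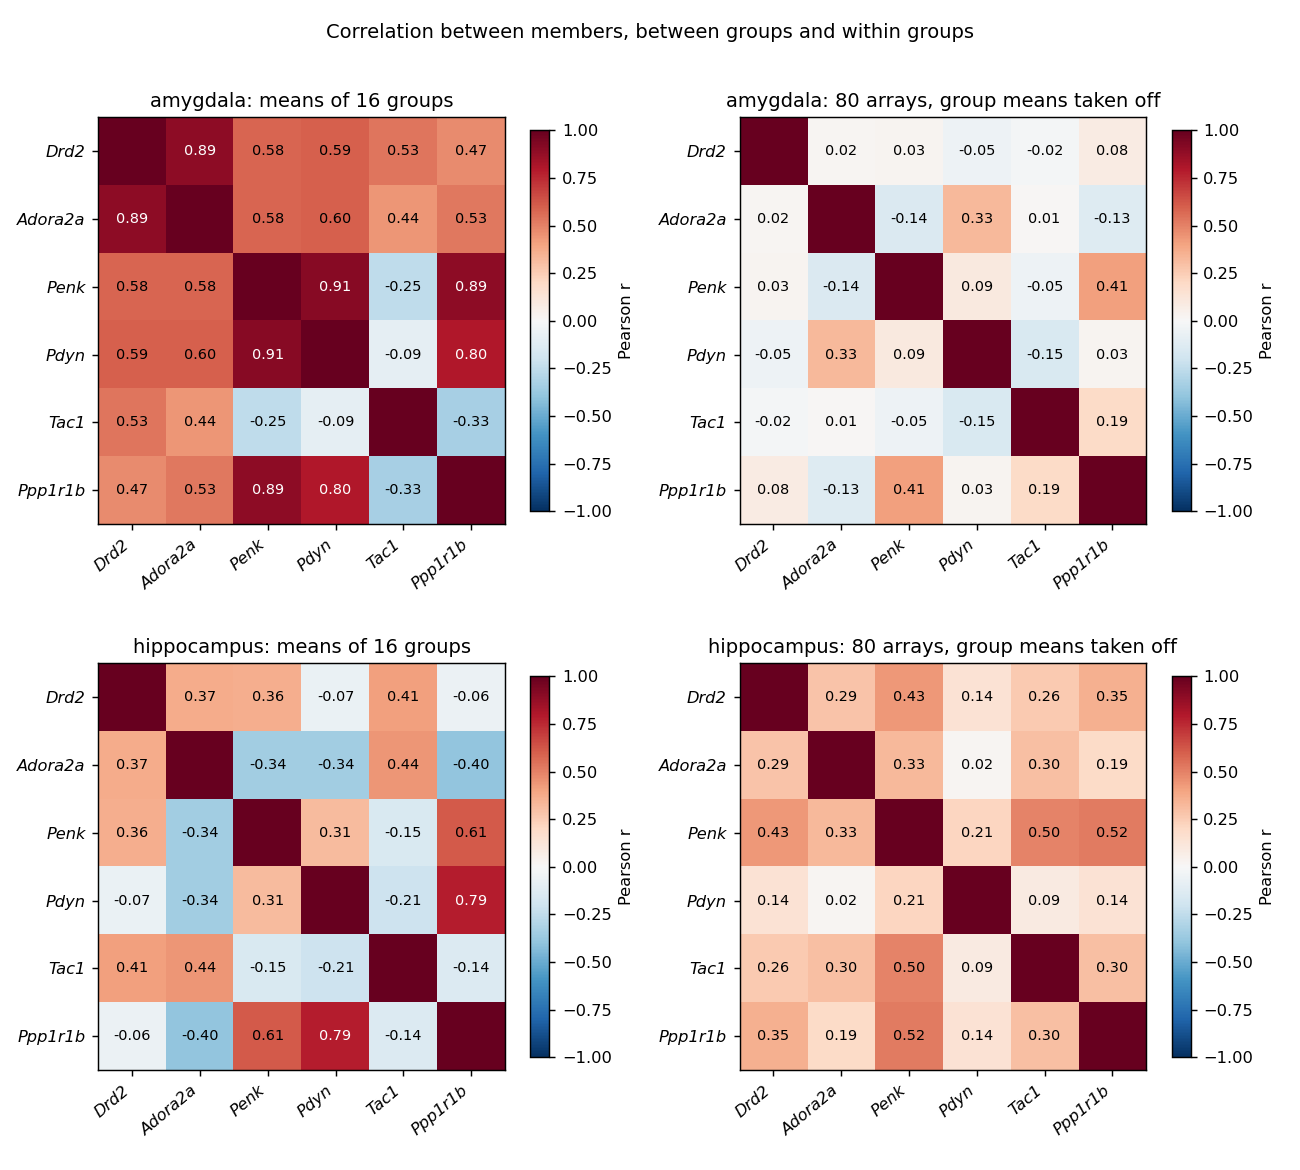
Pearson correlation between the 6 genes, over the means of 16 groups (left) and over 80 arrays with each group mean taken off (right), in the amygdala (top) and the hippocampus (bottom). In the amygdala the pairs are mostly positive between groups (median 0.58) and near 0 within them (median 0.0195), and in the hippocampus all 15 pairs are above 0 within groups (median 0.289).

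In the hippocampus 4 arrays stood apart from the others of their age, all at P21. LR-LR replicates 1, 2 and 3 and LR replicate 5 had a median r of 0.706, 0.717, 0.739 and 0.688 with the other P21 arrays, against at least 0.861 for every other hippocampal array. The 10 pairs of LR-LR arrays at P21 had a median r of 0.691. Over these 5 arrays the summed intensity of myelin genes was 4392 to 32656 and that of the glutamate neuron markers 1570 to 12481. Among LR pups at P21 choroid plexus genes summed to 398 to 19942 with a median of 528. The part of tissue makeup in the P21 values was not tested, and the results that use P21 arrays are given with and without these 4. That alternative was chosen after seeing the data.

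In the hippocampus the pattern between the genes was another one. Over group means the median of the 15 pairs was -0.0599, and within groups all 15 pairs were above 0, with a median of 0.289 and a highest of 0.519 for Penk and Ppp1r1b. Among the named transcripts most like the mean of the 6 genes within hippocampal groups were Calb2 (r = 0.807 over 80 arrays), Hpcal1, Hap1, Clip2, Adam23, Lypd1 and Rgs4 (0.772), out of 9380. Without the 4 P21 arrays that stood apart 14 of the 15 pairs were above 0 within groups, with a median of 0.26, the median over group means was 0.28, Calb2 was still the most alike (0.758) and Rgs4 had 0.72. In the amygdala they were Septin4 (0.589), Rnf4, Bak1, Cyb5b, Ache, Adarb1, Pgm1 and Chp1 (0.545), out of 7875. The arrays of one region share its normalization.

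Hippocampal levels were read against a random control sequence, which averaged 5.89 ± 0.10 (SD over 80 arrays). Drd2 was at or below it on 17 of 80 arrays and Tac1 on 15, so differences of these 2 genes are limited by background. Pdyn was at or below it on 2 arrays, and Adora2a, Penk and Ppp1r1b on 0.

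**Figure D5:**
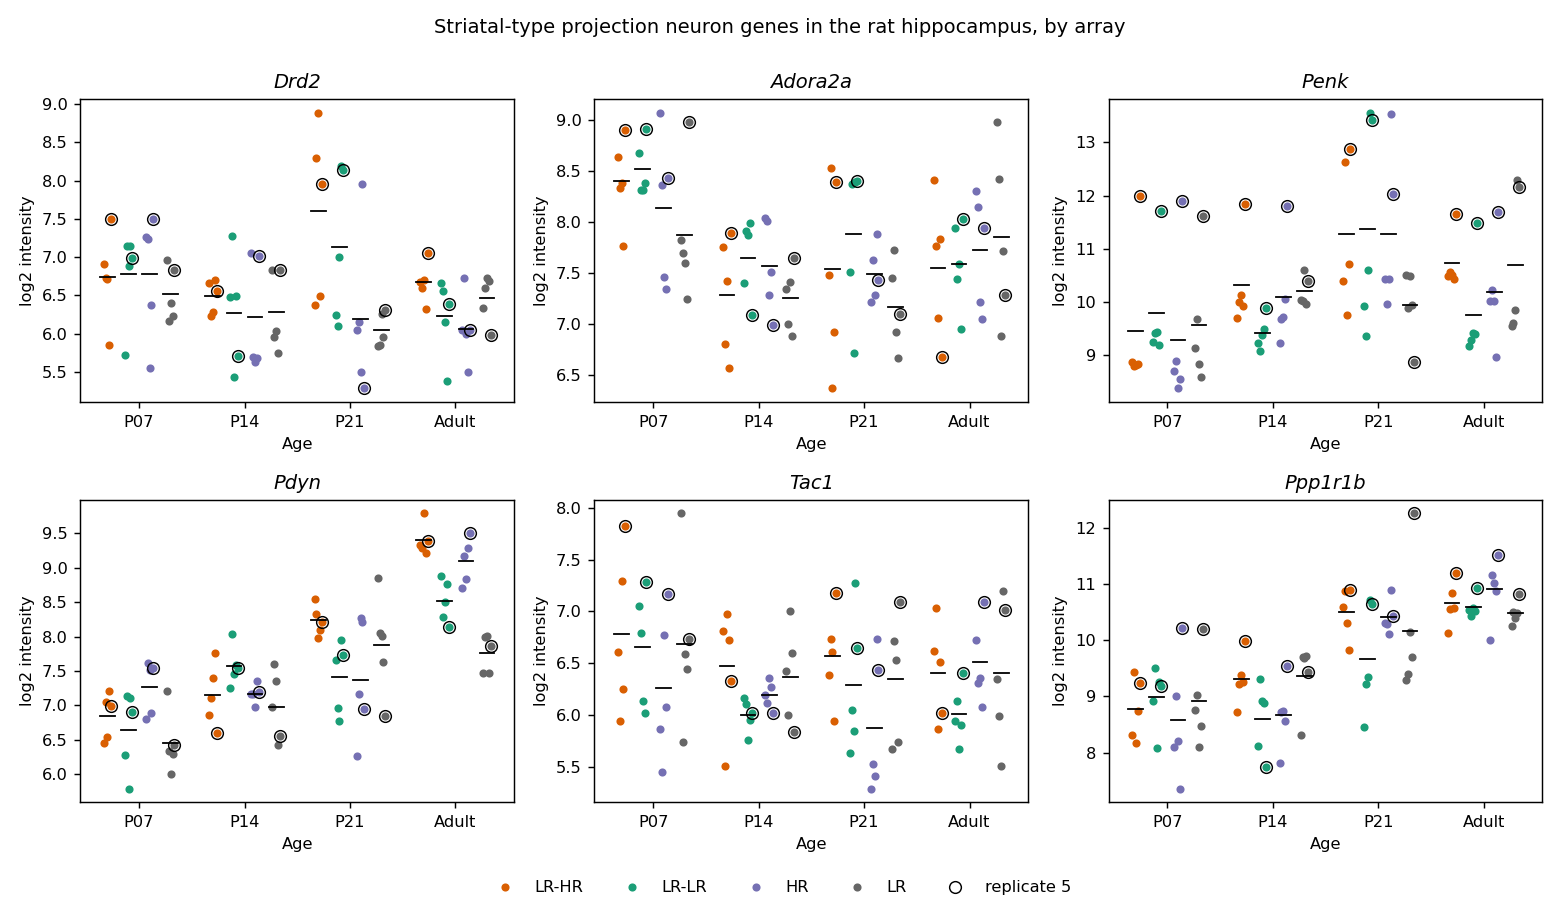
Log2 intensity of the 6 genes in the hippocampus by age, 1 point per array, with the 4 rearing groups side by side, a black bar at each group mean (n = 5) and a black ring around replicate 5. The ringed Penk arrays at P07 (11.62 to 11.99) sit above all others of that age (8.38 to 9.69), and Pdyn is highest in adults.

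In the hippocampus Pdyn was called at each age step and was the only one of the 6 genes called between the lines, in adults alone. It rose by 0.41 ± 0.15 from P07 to P14, by 0.51 ± 0.15 from P14 to P21 and by 0.97 ± 0.15 from P21 to adults (limma, adjusted p = 0.0470, 0.00773 and 7.32e-07). The first of these calls was lost under 6 of 11 alternatives (adjusted p up to 0.279) and the second without replicate 4 (adjusted p = 0.0521). Without the 4 arrays that stood apart Pdyn rose by 0.68 from P14 to P21 and by 0.80 from P21 to adults (adjusted p = 0.000224 and 0.000145). Ages accounted for 60.3% of its variance over 80 arrays, and for 63.3% without those 4. The share was much the same for Ppp1r1b, at 59.3% over 80 arrays.

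In adults Pdyn was 8.70, 9.17, 8.83, 9.29 and 9.50 in HR hippocampi, against 7.47, 7.99, 8.01, 7.47 and 7.87 in LR hippocampi. Every HR array lay above every LR array, as for 0.629% of all transcripts. The difference was 1.33 ± 0.21 (limma, adjusted p = 0.0124), and Pdyn was 1 of 13 transcripts called among 25897 (0.0502%). At the other ages none of the 6 genes was called between the lines by limma, where 0.147% of all transcripts were at P07, 2.76% at P14 and 0.0% at P21 (1763 at an unadjusted p under 0.05). Without HR replicate 4 the adjusted p was 0.0519 with a difference of 1.29, and with only the HR and LR arrays in the fit it was 0.192. At P21 the line difference was in the other direction without a call, with 6.26, 7.16, 8.27, 8.21 and 6.95 in HR pups, against 8.85, 8.05, 8.01, 7.62 and 6.85 in LR pups. The change of the Pdyn line difference from P21 to adults was 1.84 ± 0.41 (adjusted p = 0.0457), where 0.0579% of all transcripts were called, and without any one replicate number it was not called (adjusted p from 0.0711 to 0.344). It was also lost with quantile normalization and with trend and robust variance (adjusted p = 0.0815 and 0.0660). Without the P21 arrays that stood apart the change was 2.10 (adjusted p = 0.0108), and the P21 line difference was -0.76 (adjusted p = 0.302). Over the earlier steps no member's line difference had a called change, against 0.131% of all transcripts to P14 and 1.19% to P21.

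The fostered adults took places between or beside these groups. Pdyn was 9.33, 9.29, 9.79, 9.21 and 9.39 in LR-HR hippocampi, against 8.88, 8.28, 8.51, 8.76 and 8.13 in LR-LR hippocampi. All LR-HR arrays were higher, as for 1.17% of all transcripts, and the difference of 0.89 ± 0.21 was not called (limma, adjusted p = 0.287). LR-LR arrays were all above LR arrays too, by 0.75 ± 0.21 (adjusted p = 0.511), as in 0.568% of all transcripts. At P21 Pdyn was 7.98 to 8.54 in LR-HR pups and 6.78 to 7.95 in LR-LR pups, apart but not called (0.82 ± 0.38, adjusted p = 0.265), and 2.23% of all transcripts were wholly higher. Without the 3 LR-LR arrays that stood apart the difference was 0.39 (adjusted p = 0.861).

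None of the 6 genes was called between LR-HR and LR-LR hippocampi or between LR-LR and LR hippocampi at any age. Without the P21 arrays that stood apart Penk was called higher in LR-LR than in LR pups at P21, by 3.27 (limma, adjusted p = 0.0416), from 2 LR-LR arrays at 13.55 and 13.41 and 4 LR arrays at 10.50, 9.88, 10.49 and 9.95, while the 3 LR-LR arrays left out were at 9.92, 9.36 and 10.60. For LR-HR minus LR-LR the share of all transcripts called was 2.91% at P07, 0.583% at P14, 0.969% at P21 and 0.00386% in adults, and for LR-LR minus LR it was 2.59% at P07, 1.53% at P14, 0.0116% at P21 and 0.0% in adults (0 of 25897 by limma, with 1626 at an unadjusted p under 0.05). Beside Pdyn, Penk at P14 was the only gene of the 6 whose groups did not overlap in these comparisons, at 9.23, 9.09, 9.38, 9.49 and 9.89 in LR-LR pups, against 10.03, 10.03, 10.59, 9.96 and 10.39 in LR pups, a difference of -0.79 ± 0.38 (adjusted p = 0.380), as were 2.24% of all transcripts wholly lower.

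In the hippocampus Drd2 was not called between the foster groups, between LR-LR and LR rats or between the lines at any age. Its differences there are limited by background. Adult Drd2 averaged 6.67 ± 0.26 in LR-HR hippocampi and 6.23 ± 0.51 in LR-LR hippocampi (SD, n = 5 each), and at P14 6.49 ± 0.22 in LR-HR pups and 6.28 ± 0.73 in LR-LR pups. Whether the foster difference itself differed between the regions was not tested, since the regions have their own scale and were possibly normalized apart.

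Penk in the hippocampus stood apart by replicate number. At P07 replicate 5 was 11.99 in LR-HR, 11.71 in LR-LR, 11.89 in HR and 11.62 in LR pups, while replicates 1 to 4 of these groups lay between 8.38 and 9.69. Replicate 5 was the highest of its group in 11 of 16 hippocampal groups, and its mean deviation from the group mean, 1.37, was the largest of all hippocampal transcripts (percentile 100). Ppp1r1b of replicate 5 deviated by 0.60 (percentile 97.6) and was the highest in 10 of 16 groups. Without the P21 arrays that stood apart these deviations were 1.39 for Penk and 0.435 for Ppp1r1b. In the amygdala Penk of replicate 5 deviated by 0.09 (percentile 61.5). The labels do not say what the replicate number stands for, and its part in the Penk values was not tested.

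Adora2a, Penk and Ppp1r1b also changed with age in the hippocampus. Adora2a fell by 0.79 ± 0.18 from P07 to P14 (limma, adjusted p = 0.000723), and with Pdyn this made 2 of 6 genes where 12.1% of all transcripts were called. Ppp1r1b rose by 1.20 ± 0.20 and Penk by 0.96 ± 0.34 from P14 to P21 (adjusted p = 3.03e-06 and 0.0356), so that with Pdyn 3 of 6 were called, against 20.2% of all. The Penk call was lost under 5 of 11 alternatives (adjusted p up to 0.249). Without the P21 arrays that stood apart the step to P21 was 1.32 for Ppp1r1b and 1.55 for Penk (adjusted p = 5.20e-08 and 0.000271), Drd2 was called too (0.67, adjusted p = 0.0105), and Penk fell from P21 to adults by 1.22 (adjusted p = 0.0211). From P21 to adults Pdyn alone was called, against 15.2% of all. Without replicate 5 Penk rose from P07 to P14 by 0.80 (adjusted p = 0.0344) and fell from P21 to adults by 0.77 (adjusted p = 0.0335), and Ppp1r1b rose over that last step by 0.59 (adjusted p = 0.0129).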

How the data were processed

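RNA from the amygdala and hippocampus, dissected from 300 µm sections, was hybridised to 1-colour NimbleGen arrays. The deposited intensities are linear values after RMA, per the submitters' processing notes. Version and settings of RMA: not given in the sources used here. Regions have their own measured rows and scale and were analysed apart. Of 25903 identifiers, 9506 matched a symbol in the RefSeq GRCr8 table. Values were taken as log2 with no filter. limma 3.58.1 in R 4.3.3 was fitted to 20 arrays per region and age, or to 80 arrays per region for age steps and changes of the line difference, with Benjamini-Hochberg adjustment over all transcripts and a call below 0.05. The number of arrays limits the precision. The fit was tested on simulated data: of changes of 2 log2 units 97% were recovered for HR minus LR in the amygdala at P21 and 95% in the adult hippocampus, and of 1 unit 46% and 32%. No 2 arrays were identical.

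The members and lists were chosen with earlier results of these data known. All 6 members were named throughout, and of other lists at most the 4 called genes with the largest change per comparison. A few results for single genes of these lists are not reported here. Same-numbered arrays deviated together (each of 5 correlations over 0.1) in 5 of 16 tested comparisons by age, where a block for the replicate number changed no member's call. Alternatives were variance moderation, quantile normalization, a pseudocount of 32, a filter on low values, the replicate block, only the groups compared, leaving out arrays, and leaving out the hippocampal arrays whose median correlation with the other arrays of their age was below 0.8.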

Additional observations from a re-analysis of the deposited data

Results flagged for a closer look

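Single arrays stood apart from the other 4 of their group (gap over range above 0.71) in 13 of 192 groups of 5, and chance does this in about 1 in 20 groups. Of these, 8 were replicate 5 of the hippocampus. At P07 Penk was 11.99 in the LR-HR pup, 11.71 in the LR-LR pup and 11.89 in the HR pup. It was 11.84 in LR-HR pups at P14, and 11.66 in LR-HR and 11.49 in LR-LR adults. Ppp1r1b was 12.26 in the LR pup of that number at P21 and 10.93 in the LR-LR adult. Of the P21 arrays, LR replicate 5 also stood apart over all transcripts. The other hippocampal values were Ppp1r1b at 8.31 in LR replicate 1 at P14 and Drd2 at 5.73 in LR-LR replicate 1 at P07.

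In the amygdala Adora2a was 9.13 in HR replicate 3 at P21, Drd2 was 9.11 in LR-LR replicate 2 at P21, and Pdyn was 8.07 in LR-LR replicate 2 as an adult.

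The line difference changed with age, by the interaction term in limma, for Drd2 in the amygdala (1.62 from P07 to P14 and -0.92 from P14 to P21), for Adora2a in the amygdala (-0.98 from P21 to adults) and for Pdyn in the hippocampus (1.84 from P21 to adults). Of these, the Drd2 change of 1.62 was called under all 10 alternatives. The Drd2 change of -0.92 was lost under 4 of 10 (adjusted p up to 0.169), the Adora2a change under 2 of 10 (up to 0.134) and the Pdyn change under 7 of 11 (up to 0.344).

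In the amygdala 4 genes had every LR-HR array below every LR-LR array at a younger age and every LR-HR array above every LR-LR array in adults. Between P14 and adults it moved by 5.06 for Drd2, 3.98 for Adora2a, 2.65 for Penk and 2.44 for Ppp1r1b, and between P21 and adults by 3.87 for Drd2. These changes were not tested, because that contrast was used to choose the genes.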

How the results depend on the processing

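Over the alternatives, 2270 results of single genes were recomputed. Of these, 2204 kept their side of the threshold, 45 lost a call, 21 gained one and 0 called results reversed their direction. The direction of results without a call was not compared. Counts of called members moved as follows, and the cause was not tested. Small changes of a count are not all listed. One of them was the amygdala step from P07 to P14, where the replicate block added a call for Ppp1r1b (-0.23, limma, adjusted p = 0.0247). With the replicate block, HR minus LR in the amygdala gave 2 at P14 and 2 at P21 (1 each as reported), LR-LR minus LR gave 1 at P07 (0 as reported) and 1 at P21 (2 as reported), the changes of the line difference to P14 and to P21 gave 2 each (1 each as reported), and the hippocampal step to adults gave 2 (1 as reported). With the filter, HR minus LR in the amygdala gave 2 at P21 and 0 in adults, where Tac1 was left out of the test, LR-LR minus LR gave 1 at P07, and the change to P21 gave 2. With quantile normalization, LR-LR minus LR gave 1 at P07 and a mean difference of the 6 genes of 1.06 at P14 (1.24 as reported), and the changes of the line difference gave 2 to P14, 0 to P21 and 2 to adults in the amygdala and 0 to adults in the hippocampus. With trend and robust variance, LR-LR minus LR gave 1 at P07, the hippocampal step to P14 gave 1 (2 as reported) and the hippocampal change to adults gave 0. A pseudocount of 32 gave 1 for the hippocampal step to P14. With only the groups compared in the fit, HR minus LR in adult hippocampus gave 0 (1 as reported). Without the 4 hippocampal P21 arrays that stood apart, LR-LR minus LR gave 1 at P21 (Penk, 0 as reported) and the step to adults gave 2 (1 as reported). Leaving out arrays gave 1 to 2 members for HR minus LR in the amygdala at P14, 0 to 1 at P21 and 0 to 1 in adults. Without HR replicate 4 at P21 the 1 called gene was Pdyn, lower in HR pups by -0.89 (limma, adjusted p = 0.0218), in place of Adora2a. It gave 0 to 2 for LR-LR minus LR at P21 and 3 to 5 in adults, 2 to 3 for the amygdala step to P21 and 3 to 4 for that to adults. It gave 1 to 2, 0 to 1 and 0 to 1 for the changes of the line difference in the amygdala and 0 to 0 for that to adults in the hippocampus. In the hippocampus it gave 0 to 1 for HR minus LR in adults and 1 to 3 for each step. The mean foster difference of the 6 genes ran from -0.11 to 0.007 at P07, -1.27 to -1.15 at P14, -0.62 to -0.50 at P21 and 1.78 to 1.91 in adults. LR-LR minus LR alternatives in the amygdala, and the one without those 4 arrays, were chosen after seeing the data. Averaging several rows of a symbol was not run, since each gene had 1 row.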
